A study of Mus musculus with 11 samples.

Results

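The genes described here are 36 members of the glycolytic pathway and of the cellular response to low oxygen, taken from a list of names and looked up in every count table of a series on mouse embryonic stem (ES) cells. The tables together name 30247 genes. The bulk table held 30 of the 36 members among its 12588 genes, and the 5 single-cell tables held all 36, except the wild-type 2i/LIF table, which held 35 and had no column for Car9. By role, 2 members transport glucose, 9 belong to the upper and 6 to the lower steps of glycolysis, 6 handle lactate and the entry of pyruvate into mitochondria, and 13 are known chiefly as hypoxia-response genes. The list gives names alone, with no threshold on a value, and was drawn up with earlier results of these data known.

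Glycolysis splits glucose into pyruvate through a chain of cytosolic enzymes, and many of its steps can be carried by alternative enzymes encoded by separate genes. When oxygen is scarce, the HIF transcription factors escape degradation and raise many of these genes together with others for angiogenesis, collagen hydroxylation, mitophagy and lactate export. ES cells are known for a high glycolytic rate, and the balance between glycolysis and respiration is known to differ between the naive state and states closer to differentiation.

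The series measured RNA in ES cells kept in soft agarose microgels or on tissue-culture plastic, and in cells made to express plakoglobin, the junction protein encoded by Jup. Bulk libraries were made with Smart-seq2, a full-length cDNA method, from about 1000 wild-type cells each of the Rex1GFPd2 reporter genotype in 2i/LIF medium, which blocks the kinases MEK and GSK3 and supplies the cytokine LIF: 3 from microgels and 3 from plastic. Single cells were profiled with inDrop, a droplet method that counts unique molecular identifiers (UMIs), with 1 library per condition. Wild-type E14 cells were taken in serum/LIF on plastic (WT serum), in 2i/LIF on plastic (WT 2i) and in serum/LIF in microgels (WT gel), and 2 lines overexpressing plakoglobin from the constitutive CAG promoter, labelled low (JupLow) and high (JupHigh), were taken in serum/LIF on plastic; their parent line and clonal origin are not given in the sources used here.

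The 6 bulk libraries held between 637235 and 2583256 reads, and plastic replicates 1 and 2 were the deepest. The single-cell libraries kept 725 WT serum, 2889 WT 2i, 112 WT gel, 1200 JupLow and 2153 JupHigh cells with at least 1000 UMIs, at medians of 1731.5 to 2465 UMIs per cell, and WT gel is the smallest. The barcodes of the WT gel table, in alphabetical order like the others, break off within a row at those starting with ACCC, whereas the other 4 tables run to TGTT, so its 112 cells may be only part of that library. No whole barcode was shared between libraries; with the 8 bases left out that are constant within each library, up to 53 were, or 2.46% of the smaller library. Jup stood at 36.7 CPM (UMIs scaled to a common library total) in WT serum, 46.7 in WT 2i, 38.1 in WT gel, 37.9 in JupLow and 47.8 in JupHigh, a pattern that does not separate the overexpressing lines from wild type, so these 2 are named by their labels only. Whether reads from the transgene fall on the counted gene is not given in the sources used here. The WT serum table stood apart in the genes it counts: 38 genes were at 0 or had no column there while at 100 CPM or more in each of the other 4 libraries, and no gene showed this for any other table. Among the 38 were the mitochondrially encoded genes mt-Nd4 and mt-Co3. Every ratio against WT serum below rests on the WT serum table. Over the markers each table holds (7 of 8 in WT serum, all 8 in the others), those for ES cells summed to 1981 to 3807 CPM, and fibroblast and trophoblast markers to at most 60.8 CPM each. Those for primitive endoderm (10 or 11 of 11 held) summed to 1820 CPM in WT serum and to 247 to 494 CPM in the others.

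Several of the 36 genes are textbook HIF targets, so their promoters were searched for the core letters of the HIF response element. The 250 bases before each RefSeq start (GRCm38.p6) were searched on both strands for ACGTG and GCGTG. Matches may overlap, and CACGTG holds ACGTG on both strands and counts as 2. There were 33 members with an entry, with 47 starts between them, and none for Slc2a3, Bnip3l and Ndrg1. ACGTG was present in 24 of the 47 starts (51.1%), against 16.6% of all 32851 promoters, and GCGTG in 27 (57.4%), against 28.2%. Nearby starts of a gene can share the same letters, as 2 of Aldoa do. By gene, 21 of the 33 members had ACGTG and 23 had GCGTG before at least 1 start, while the shares of all promoters are per start. Member starts were also richer in GC, at a median of 62.8% against 52.4%. Ldha, which makes lactate, is shown for the 5 matches to ACGTG before the first of its 2 starts; Slc2a1, the main basal glucose transporter, and Slc16a3, a lactate exporter, for their wide range across the single-cell libraries; and Ldhb, Tpi1 and Mif because they moved in the bulk comparison with 1 GCGTG or no match. Capitals mark the matched letters, each sequence runs 5′ to 3′ toward its start, and a match is only a run of letters.
Ldha (chr7:46845554-46845803, + strand): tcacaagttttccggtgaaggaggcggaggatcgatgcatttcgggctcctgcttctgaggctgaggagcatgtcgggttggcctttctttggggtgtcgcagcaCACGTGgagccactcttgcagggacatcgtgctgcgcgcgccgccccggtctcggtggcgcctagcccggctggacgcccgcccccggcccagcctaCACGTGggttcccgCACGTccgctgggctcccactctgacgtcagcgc
Slc2a1 (chr4:119108495-119108744, + strand): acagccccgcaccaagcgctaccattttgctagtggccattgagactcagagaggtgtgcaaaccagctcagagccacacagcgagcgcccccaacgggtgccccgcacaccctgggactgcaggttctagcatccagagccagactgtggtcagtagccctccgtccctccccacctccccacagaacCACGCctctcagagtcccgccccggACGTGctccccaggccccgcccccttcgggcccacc
Slc16a3 (chr11:120948817-120949066, + strand): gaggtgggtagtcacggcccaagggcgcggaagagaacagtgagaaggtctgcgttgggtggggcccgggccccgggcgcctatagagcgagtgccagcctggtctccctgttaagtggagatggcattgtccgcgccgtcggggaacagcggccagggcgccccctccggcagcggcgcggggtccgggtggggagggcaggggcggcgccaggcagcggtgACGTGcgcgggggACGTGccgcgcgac
Ldhb (chr6:142507958-142508207, - strand): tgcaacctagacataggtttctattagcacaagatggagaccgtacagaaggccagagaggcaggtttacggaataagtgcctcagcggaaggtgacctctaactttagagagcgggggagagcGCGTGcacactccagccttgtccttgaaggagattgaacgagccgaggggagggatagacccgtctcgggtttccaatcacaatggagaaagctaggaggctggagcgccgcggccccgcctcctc
Tpi1 (chr6:124814159-124814408, - strand): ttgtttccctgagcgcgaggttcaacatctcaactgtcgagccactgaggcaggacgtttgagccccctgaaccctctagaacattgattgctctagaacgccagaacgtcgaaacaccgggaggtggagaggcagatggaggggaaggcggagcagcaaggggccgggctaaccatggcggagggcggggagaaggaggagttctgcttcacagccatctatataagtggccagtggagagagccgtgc
Mif (chr10:75860278-75860527, - strand): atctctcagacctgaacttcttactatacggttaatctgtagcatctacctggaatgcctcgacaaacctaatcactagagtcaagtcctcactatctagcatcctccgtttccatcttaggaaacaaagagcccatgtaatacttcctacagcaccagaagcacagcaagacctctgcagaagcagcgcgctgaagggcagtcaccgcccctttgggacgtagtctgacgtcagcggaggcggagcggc

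In bulk, most of the chain from fructose bisphosphate to 2-phosphoglycerate and on to lactate stood higher in microgels than on plastic, while the alternative lactate dehydrogenase Ldhb stood lower. Of the 30 members in the table, 25 had enough reads to be tested. Of these, 13 rose, 3 fell and 9 did not pass an adjusted p of 0.05. Pdk1, counted in the 13, met the read filter only through the gel libraries, where it is high. Among all 7878 genes tested, 18.3% rose and 18.6% fell by the same rule. The median log2 fold change of the 25 members was 0.33, beside -0.02 for all genes tested. With a correction for GC content it was 0.20, and 9 members passed as higher and 5 as lower. Fold changes are on the scale of log2(value + 0.5), which understates changes of low genes, and values are the deposited, depth-scaled read counts per library. The labels do not say that the triplicates came from separate cultures, so p-values measure only the spread between these libraries. In pooled cells, more RNA per cell and more cells of a kind cannot be told apart.

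**Figure D1:**
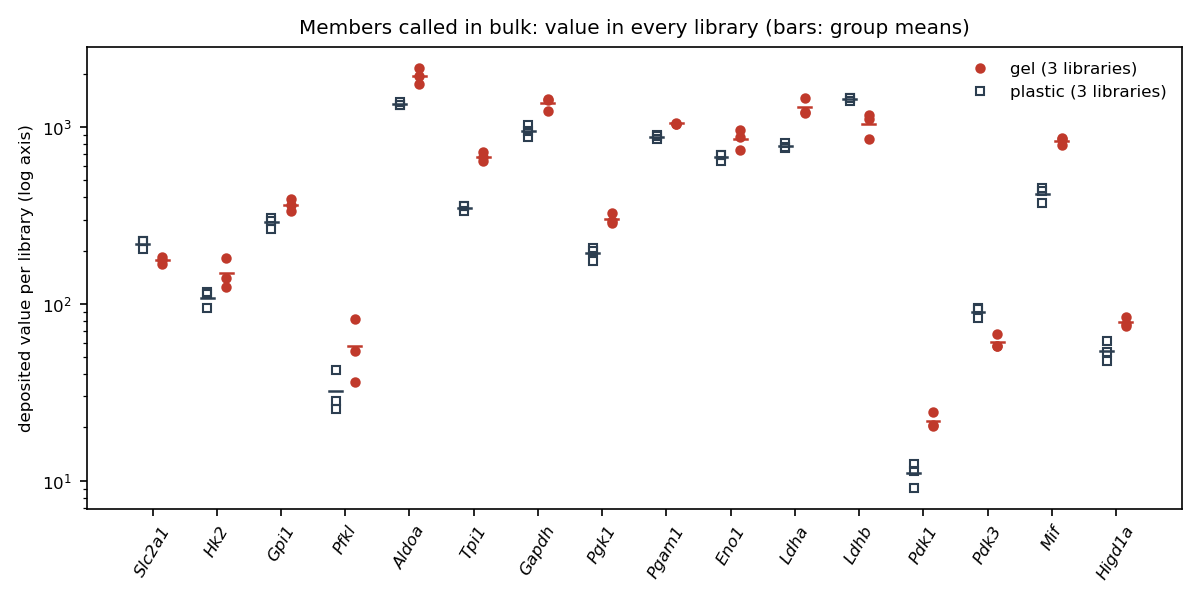
Deposited value of each called member in each of the 3 gel (filled circles) and 3 plastic (open squares) bulk libraries, on a log axis, with bars at the group means. The groups overlap for Pfkl alone among these 16 genes chosen by their call (3897 of all 7878 genes tested do not overlap), and Slc2a1, Ldhb and Pdk3 are the 3 with gel below plastic.

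Of the glucose transporters, Slc2a1 fell slightly. It read 168, 178 and 184 in the gel libraries and 227, 227 and 203 on plastic, so that all gel values lay below all plastic values by a narrow margin (log2 fold change -0.31, SE 0.11, limma-adjusted p = 0.041). That call was lost without any 1 of gel replicates 1 and 2 and plastic replicates 1 and 2, with an adjusted p up to 0.164, and also with DESeq2 (0.0805) and with no read filter (0.0557). Slc2a3, the high-affinity neuronal-type transporter, ranged from 529 to 588 in gel and from 427 to 636 on plastic and did not pass (limma-adjusted p = 0.65).

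In the upper steps, 4 of the 7 tested members rose and none fell. Aldoa, the aldolase that splits the sugar into triose phosphates, read 1951, 1764 and 2160.1 in gel and 1396, 1337 and 1331 on plastic (log2 fold change 0.53, SE 0.091, limma-adjusted p = 2.52e-04), with every gel library above every plastic one. Hk2, the inducible hexokinase that traps glucose as its phosphate, read 182, 125 and 140.2 in gel against 94.8, 117 and 114 on plastic. The gap between its groups is small, and the rise (log2 fold change 0.45, SE 0.15, limma-adjusted p = 0.0257) was lost without gel replicate 1 or plastic replicate 1, at adjusted p up to 0.151. Gpi1, the isomerase of the next step, read 365, 334 and 391.6 in gel and 306, 266 and 295 on plastic, again without overlap (log2 fold change 0.33, SE 0.11, limma-adjusted p = 0.0224). Its call failed without gel replicate 1, gel replicate 3 or plastic replicate 2, at adjusted p up to 0.106. Pfkl, the liver-type subunit of phosphofructokinase, the committing enzyme of the pathway, read 36.1, 54.0 and 82.4 in gel and 28.3, 25.4 and 42.5 on plastic, and gel replicate 1 lay below plastic replicate 3 (log2 fold change 0.79, SE 0.26, limma-adjusted p = 0.0234). Without gel replicate 2, gel replicate 3 or plastic replicate 2 it no longer passed, at adjusted p up to 0.144. The other phosphofructokinase subunits Pfkm and Pfkp had log2 fold changes of -0.39 and -0.057 and the brain-type aldolase Aldoc 0.40, none of which passed. Hk1, the constitutive hexokinase, was under the read minimum; it read 19.2, 9.82 and 24.7 in gel and 7.07, 3.52 and 4.55 on plastic, on 3 to 18 reads per library. In the 5 alternative fits that kept it, it passed as higher, at log2 fold changes of 1.48 to 2.06 and limma-adjusted p of 0.00333 to 0.0253. Those were the fits with no read filter and without gel replicate 2 or any 1 plastic replicate. Where a library was left out, Hk1 met the read filter only through gel replicates 1 and 3, where it is high. Its passing in those fits is therefore no support for a rise.

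In this fit the lower steps were the most uniform group, with 5 of 6 tested members higher in gel. With the GC correction, Tpi1, Gapdh and Pgk1 stayed higher, Eno1 and Pgam1 did not pass, and Pkm passed as lower. Tpi1, which interconverts the triose phosphates, nearly doubled: it read 677, 643 and 720.04 in gel and 356, 358 and 334 on plastic (log2 fold change 0.96, SE 0.10, limma-adjusted p = 1.55e-06). No gel library came near a plastic one. Gapdh, the dehydrogenase often used as a reference gene, read 1433, 1428 and 1234 in gel and 1032, 956 and 879 on plastic (log2 fold change 0.51, SE 0.10, limma-adjusted p = 4.65e-04). Pgk1, the first enzyme of the chain to make ATP, read 286, 293 and 327 in gel and 199.9, 206 and 175 on plastic (log2 fold change 0.64, SE 0.11, limma-adjusted p = 3.19e-04). Both groups were apart for these genes, and Tpi1, Gapdh and Pgk1 passed in all 6 fits that left out a library. Eno1, enolase, read 875, 747 and 959 in gel and 699.9, 644 and 699.8 on plastic, apart by a small gap (log2 fold change 0.33, SE 0.10, limma-adjusted p = 0.0166), and failed without gel replicate 1, gel replicate 3 or plastic replicate 2. Pgam1, the mutase before it, read 1059.7, 1046 and 1044 in gel and 892, 857 and 900.2 on plastic (log2 fold change 0.25, SE 0.086, limma-adjusted p = 0.0287). Its groups were tight and apart, yet the change was the smallest called, and it passed in 1 of the 6 fits that left out a library (the one without plastic replicate 3). Pkm, pyruvate kinase, did not pass (log2 fold change 0.067, limma-adjusted p = 0.654), with 1197 to 1564 in gel inside and around 1157 to 1454 on plastic.

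**Figure D2:**
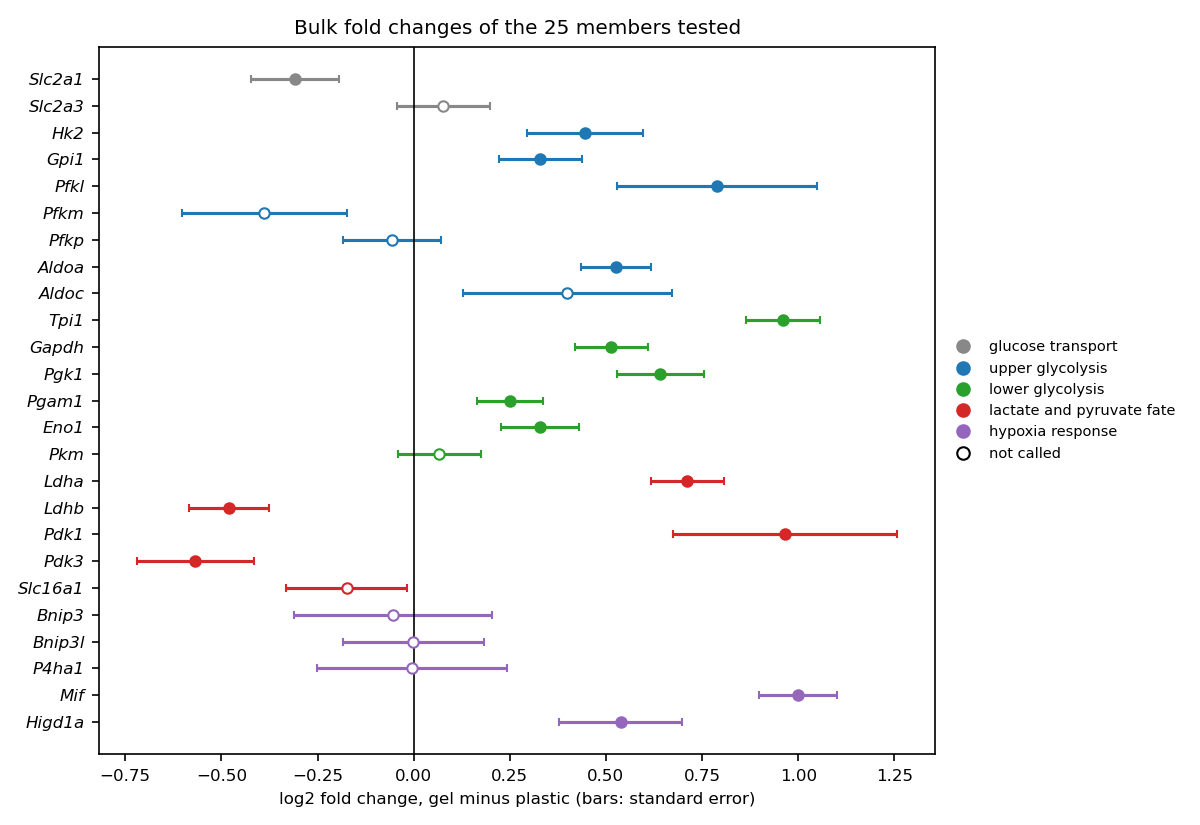
Log2 fold change of gel minus plastic for the 25 tested members, grouped and coloured by role, with bars of 1 standard error; open symbols did not pass. All 6 genes of lower glycolysis lie right of 0 in this fit (Pkm turns below 0 with the GC correction), while the lactate and pyruvate genes fall on both sides.

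Genes for the fate of pyruvate split in both directions. Ldha, the lactate dehydrogenase chain that favours making lactate, read 1224, 1195 and 1463 in gel and 818, 767 and 776 on plastic (log2 fold change 0.71, SE 0.10, limma-adjusted p = 2.59e-05). Ldhb, the chain that favours the reverse reaction, went the other way, at 859, 1166 and 1110.3 in gel and 1414, 1458 and 1465 on plastic (log2 fold change -0.48, SE 0.10, limma-adjusted p = 0.00168). Neither pair of groups overlapped, and both calls held in all 6 fits that left out a library. Of the reads on these 2 genes, Ldhb held 41.2%, 49.4% and 43.1% in gel and 63.3%, 65.5% and 65.4% on plastic. The mean share was 44.6% ± 4.28 in gel and 64.8% ± 1.22 on plastic (SD, n = 3 each). An exact 2-sided permutation test gave p = 0.1, the smallest that 3 against 3 libraries allow. Pdk1 and Pdk3 encode kinases that switch off pyruvate dehydrogenase. Pdk1 read 20.3, 24.6 and 20.6 in gel and 12.5, 11.3 and 9.11 on plastic, without overlap but on as few as 6 reads (log2 fold change 0.97, SE 0.29, limma-adjusted p = 0.0146). It met the read filter only through the gel libraries, where it is high, and dropped out where 10 reads were required in all libraries. Pdk1 also missed the threshold without gel replicate 2 (adjusted p 0.0519), with DESeq2 (0.0577) and with all libraries thinned to the shallowest (0.122, log2 fold change 0.73). Pdk3 read 57.6, 57.7 and 67.3 in gel and 82.7, 94.3 and 94.1 on plastic, again without overlap, and fell (log2 fold change -0.57, SE 0.15, limma-adjusted p = 0.00693). The monocarboxylate transporter Slc16a1 did not pass (log2 fold change -0.17), and the lactate exporter Slc16a3 had at most 3 reads in any library.

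Among the hypoxia-response members only 5 of 13 could be tested in these 2i/LIF libraries, and 2 rose. Mif, a cytokine that is also a tautomerase, read 867, 787 and 856 in gel and 436, 452 and 370.4 on plastic (log2 fold change 1.00, SE 0.10, limma-adjusted p = 1.59e-06). Gel values were about double the plastic ones with no overlap. With the GC correction the log2 fold change of Mif was 0.28 and did not pass (limma-adjusted p = 0.0551). Higd1a, a mitochondrial protein that binds respiratory complexes, read 76.7, 74.9 and 83.8 in gel and 47.8, 61.4 and 53.1 on plastic (log2 fold change 0.54, SE 0.16, limma-adjusted p = 0.0135); its call was lost without plastic replicate 1, at adjusted p = 0.0857. The mitophagy receptors Bnip3 and Bnip3l and the collagen prolyl hydroxylase P4ha1 had log2 fold changes of -0.054, -6.1e-04 and -0.0043, with gel and plastic values interleaved. Ndrg1, Egln1 and Ankrd37 had too few reads, and Vegfa, Egln3, P4ha2, Car9, Ddit4 and the glycolytic activator Pfkfb3 had no row.

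Summed over the members of a role, deposited values were 5625 ± 250.2 in gel and 4366 ± 164 on plastic for lower glycolysis, and 2726 ± 241 in gel and 1976 ± 35.3 on plastic for upper glycolysis (SD, n = 3 each). For the hypoxia-response members the sums were 1069 ± 37.4 in gel and 632 ± 51.5 on plastic, carried mostly by Mif. These sums are not corrected for GC content. None of these 3 pairs of groups overlapped. Each gave an exact 2-sided permutation p = 0.1, or 0.14 after Benjamini-Hochberg adjustment over the 7 sums and shares tested. As 0.1 is the smallest value that 3 against 3 libraries allow, it only restates the lack of overlap. The roles were drawn up with earlier results of these data known. Glucose transport (732 ± 22.1 in gel and 752 ± 93.0 on plastic) and lactate and pyruvate fate (2503 ± 245 in gel and 2424 ± 24.1 on plastic) overlapped between groups, each with an exact permutation p = 0.7.

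GC content and gene copies moved with these differences. Over all genes, the median log2 fold change climbed from -0.23 in the lowest of 4 equal bins of genes by GC to 0.25 in the highest, and 7.80% against 31.1% rose. The members sit toward the upper end, with 17 of 25 in the top 2 bins. With a fitted GC trend taken out, 9 members rose and 5 fell: Mif (log2 fold change 0.28, limma-adjusted p = 0.0551), Pfkl (adjusted p 0.125), Pgam1 (adjusted p 0.112) and Eno1 (log2 fold change 0.013, adjusted p 0.925) no longer passed as higher, and Pkm (log2 fold change -0.27, adjusted p 0.038) and Pfkm (-0.54, adjusted p 0.0499) passed as lower. Tpi1 (0.87), Pgk1 (0.65), Gapdh (0.45), Ldha (0.69) and Ldhb (-0.56) kept their calls there, as did Aldoa at less than its former size (0.24, adjusted p 0.0395). Whether base composition plays a part in the result itself was not tested. Some members share sequence with copies elsewhere in the genome, counted as stretches of 50 bases. For Pgk1 53.9% is shared with other genes, chiefly Pgk1-rs7, for Gapdh 24.7%, chiefly Gm7336, and for Ldhb 20.99%, all with Gm5514. These copies moved the same way as their members (Pgk1-rs7 log2 fold change 0.60, Gm7336 0.43, Gm5514 -0.55), so reads cannot be assigned to one or the other with certainty. Mif shares 34.1% with copies, the nearest of which, Gm10169, has no row in the table. Of the members called, Slc2a1, Gpi1, Aldoa, Tpi1, Gapdh and Higd1a also overlap another gene on the opposite strand, and whether counting used strand is not given in the sources used here. Eno1b and Pgam1-ps2, the copies nearest to Eno1 and Pgam1, stood at log2 fold changes of 0.13 and 0.014 and did not pass, with Eno1b above Eno1 in deposited value (2677 against 860.1 in gel). Gm7336 (means of 2177 in gel and 1614 on plastic) likewise lay above Gapdh, and Pgk1-rs7 (475 and 314) above Pgk1.

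Other genes of the pathway, taken from lists, are to be read beside the 18.3% and 18.6% of all genes tested that rose and fell. Among 11 tested HIF regulators, 3 rose and 1 fell: the coactivator Ep300 (log2 fold change 1.72), the oxygen-sensing hydroxylase Egln2 (0.83) and the elongin subunit Tceb2 (0.59) rose, and Cul2, the scaffold of the ligase that destroys HIF, fell (-0.98). Hif1a itself did not pass (0.11, limma-adjusted p = 0.559). Of 12 further hypoxia-inducible genes tested, 0 rose and 2 fell, Pgm1 (-0.54) and Ak4 (-0.47), with a list median of -0.07. Of 9 tested genes for the entry of pyruvate into mitochondria, 0 rose and 3 fell: the pyruvate dehydrogenase phosphatase Pdp2 (-1.53) and the enzyme's own subunits Pdha1 (-0.58) and Pdhb (-0.37). Among 6 other glycolytic isoenzymes, the gluconeogenic phosphatase Fbp2 (-2.08) and the regulator Pfkfb1 (-1.42) fell and none rose, and of 6 pentose phosphate genes Pgls rose (0.59) and Rpe fell (-0.76). ES cell markers were present throughout, 5 of 8 tested rising and 2 falling. Of 6 trophoblast markers 1 could be tested and did not pass. No fibroblast marker of 9 had a row, and of 11 primitive endoderm markers 2 had rows: Lama1 rose (log2 fold change 0.99, limma-adjusted p = 0.0117) and Sparc did not pass (0.046), their sums running from 221 to 245 in gel and from 194 to 225 on plastic. Of 2 heat shock genes tested 1 fell and none rose. Lars2, often high where mitochondrial ribosomal RNA is carried over, read 1443 to 3012 in gel and 12.9 to 15.4 on plastic, and the immediate early gene Ier2 stood higher in gel (log2 fold change 1.09). The part of these signs in the members' changes was not tested.

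In single cells, WT 2i differed from WT serum in more members than any other pair of libraries compared. With 1 library per condition there is no test: levels are CPM over all cells of a library, intervals are exact 95% intervals of counting error only, and a member is counted as past the fold at 1.5-fold or more with at least 20 CPM in the higher library. Together the members made up 6453 CPM in WT serum, 4674 in WT 2i, 7134 in WT gel, 6333 in JupLow and 5636 in JupHigh. Of the 30 members held by all 5 tables and at 20 CPM or more in at least 1, WT 2i was the lowest library for 21 and WT gel the highest for 13. Over the 8053 genes meeting the same rule, WT 2i was lowest for 22.5% and WT gel highest for 24.4%. With WT serum set aside, the counts for WT 2i cannot fall. It was then the lowest of the 4 other libraries for 21 of the 30, beside 25.4% of all genes.

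**Figure D3:**
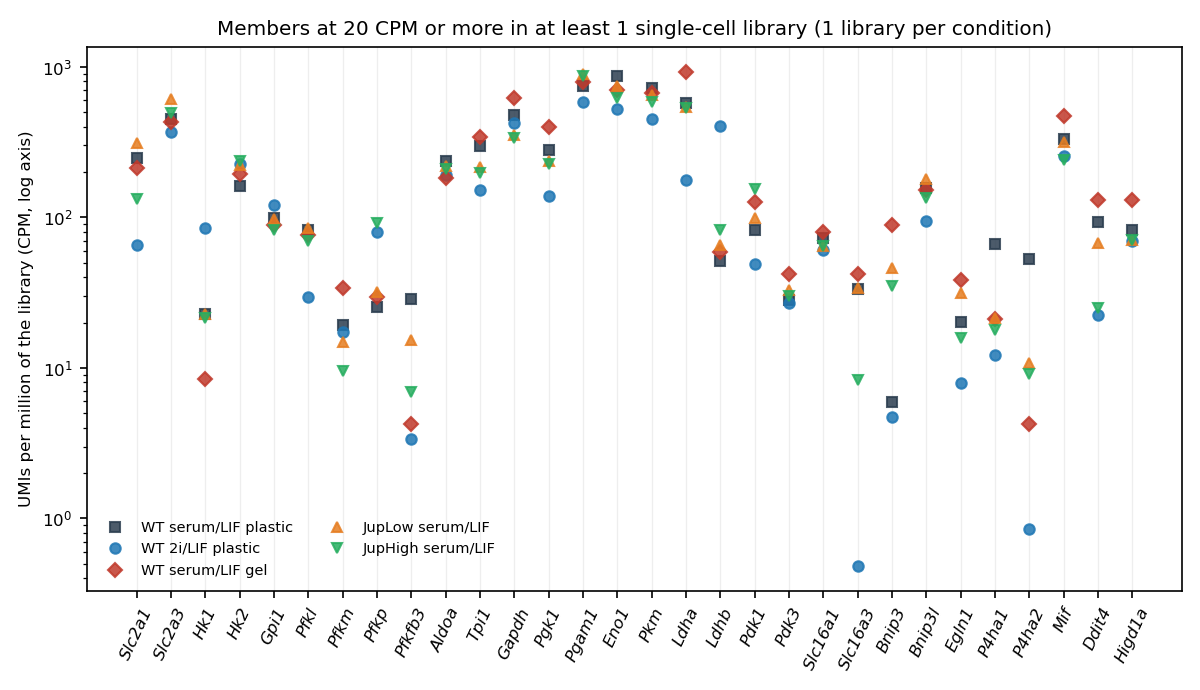
CPM of the 30 members at 20 CPM or more in at least 1 single-cell library, on a log axis, with a symbol for each of the 5 libraries. Most WT 2i circles lie at the foot of their columns, while Hk1, Hk2, Gpi1, Pfkp and Ldhb lie above WT serum there.

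Between WT 2i and WT serum, 28 members reached the level for comparison; 3 were past the fold higher in WT 2i and 15 lower, beside 18.2% and 23.6% of all 7470 genes compared. The median log2 ratio of the members was -0.70 and that of all genes -0.03. The members' median was -0.40 without cells rich in primitive endoderm markers, -0.45 without barcodes above 3 times the median UMIs, -0.45 with gene copies added and -0.37 at a minimum of 100 CPM; with no minimum it was -0.37 beside -0.36 for all genes. With TMM scaling, which moved the median of all genes to 0.17, 4 members were higher and 10 lower of 27 compared, beside 25.7% and 18.3% of all genes; Hk2 was then the added higher member, Eno1, Pkm, Pdk1 and Bnip3l lay under 1.5-fold, Egln1 fell under 20 CPM, and no member past the fold changed direction. The 3 higher members were all alternative isoenzymes: Ldhb, Hk1 and the platelet-type phosphofructokinase Pfkp. Their lower counterparts Ldha and Pfkl were among the 15, and Hk2 was within it at 1.40-fold (95% interval 1.24 to 1.58) higher. Over the markers that both tables hold, the 7 for ES cells summed to 3088 CPM in WT 2i and 1981 in WT serum. The 10 for primitive endoderm summed to 247 and 1756. Lars2 stood at 18.1 CPM in WT 2i and 30.2 in WT serum. Of the genes compared, 1 of 2 immediate early and 1 of 3 heat shock genes were past the fold lower in WT 2i and none higher. The part of these markers and signs in the differences was not tested.

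Ldhb stood at 51.5 CPM in WT serum, 406 in WT 2i, 59.3 in WT gel, 65.3 in JupLow and 82.1 in JupHigh. WT 2i was the one high library, 7.89-fold (95% interval 6.49 to 9.68) above WT serum, and JupHigh the next. Ldha was lowest in WT 2i and highest in WT gel, at 572 CPM in WT serum, 176 in WT 2i, 927 in WT gel, 537 in JupLow and 528 in JupHigh. It was 3.25-fold (95% interval 3.00 to 3.51) lower in WT 2i than in WT serum. As a share of the UMIs of both genes, Ldhb made up 69.8% (68.4 to 71.0) in WT 2i, 8.26% (6.8 to 9.92) in WT serum, 6.01% (3.32 to 9.88) in WT gel, 10.8% (9.41 to 12.4) in JupLow and 13.4% (12.2 to 14.8) in JupHigh, with exact binomial intervals. The intervals of WT gel and WT serum overlap, while those of WT serum and JupHigh do not. The bulk 2i/LIF libraries, from another line and assay, had shares of 63.3% to 65.5% on plastic and 41.2% to 49.4% in gel. Thinned to 1000 UMIs, 37.5% of WT serum cells and 15.8% of WT 2i cells held an Ldha UMI, with no cell type here that lacks the gene to set a background. Ldha in barcodes under 500 UMIs, which may hold free RNA, stood at 611 CPM in WT serum, about the level in its cells.

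**Figure D4:**
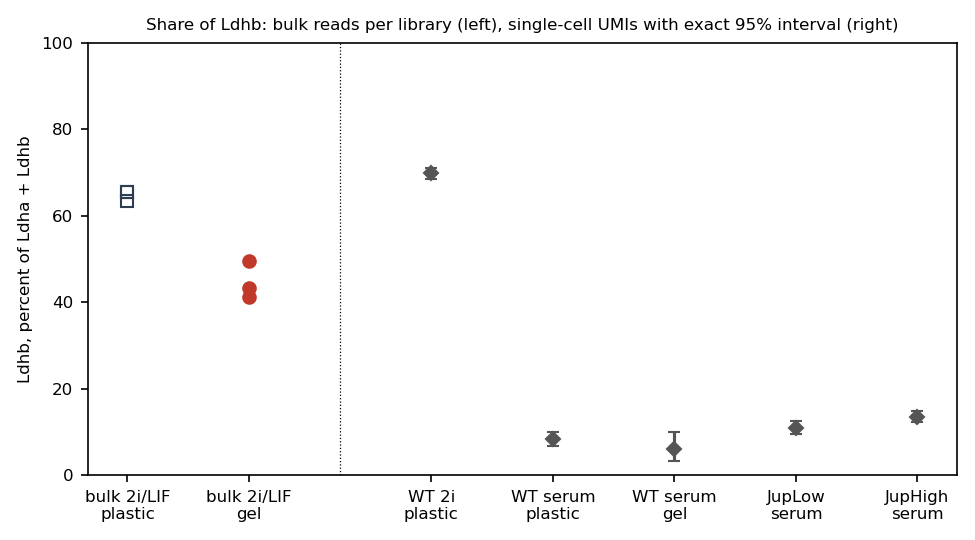
Ldhb as a percent of Ldha plus Ldhb, in each bulk library at left (reads) and in each single-cell library at right (UMIs, with exact 95% binomial intervals). The 4 serum/LIF libraries lie under 15%, WT 2i at 69.8%, and the 3 bulk gel libraries below the 3 on plastic.

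The phosphofructokinase and hexokinase pairs also differed between libraries. Pfkp stood at 25.3 CPM in WT serum, 79.4 in WT 2i, 29.6 in WT gel, 32.0 in JupLow and 91.4 in JupHigh, high in WT 2i and in JupHigh. Pfkl stood at 82.3 CPM in WT serum, 29.5 in WT 2i, 76.2 in WT gel, 84.8 in JupLow and 69.4 in JupHigh, lowest in WT 2i. Pfkp therefore took 72.9% (69.9 to 75.8) of the UMIs of the pair in WT 2i and 56.9% (53.1 to 60.6) in JupHigh, against 23.5% (18.0 to 29.7) in WT serum and 27.4% (22.7 to 32.5) in JupLow. Pfkp overlaps Pitrm1 on the opposite strand, which stood at 6.94 CPM in WT serum and 42.3 to 61.8 CPM in the other 4; its part in the Pfkp values was not tested. Hk1 stood at 22.8 CPM in WT serum, 85.2 in WT 2i, 8.47 in WT gel, 22.9 in JupLow and 21.6 in JupHigh, and only WT 2i stands above the rest. Its share of Hk1 and Hk2 UMIs was 27.5% (25.8 to 29.3) in WT 2i and 12.4% (9.25 to 16.2) in WT serum, and WT gel had 2 Hk1 UMIs.

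Of the 4 transporters of glucose and lactate, Slc2a1 and Slc16a3 were past the fold lower in WT 2i and Slc2a3 and Slc16a1 were not. Slc2a1 stood at 247 CPM in WT serum, 65.5 in WT 2i, 212 in WT gel, 312 in JupLow and 132 in JupHigh. It was 3.77-fold (95% interval 3.33 to 4.27) lower in WT 2i than in WT serum, and JupHigh was the next lowest. Slc2a3, by contrast, stayed within 1.5-fold, at 368 CPM in WT 2i and 446 in WT serum. Slc16a3 was nearly absent in WT 2i: it stood at 33.2 CPM in WT serum, 0.483 in WT 2i, 42.3 in WT gel, 33.7 in JupLow and 8.35 in JupHigh, on 4 UMIs in WT 2i and 67 in WT serum. That is 68.8-fold (95% interval 25.6 to 259.7) lower, and JupHigh again lay between. Slc16a1, the other lactate carrier of the list, ran from 60.4 to 80.4 CPM over all 5 libraries. Pdk1 stood at 82.8 CPM in WT serum, 49.1 in WT 2i, 127 in WT gel, 99.0 in JupLow and 154 in JupHigh, lowest in WT 2i and highest in JupHigh, and Pdk3 ran from 26.9 to 42.3 CPM.

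Of the lower steps, 4 of 6 were past the fold lower in WT 2i. Tpi1 stood at 298 CPM in WT serum, 152 in WT 2i, 343 in WT gel, 217 in JupLow and 197 in JupHigh, and Pgk1 at 279 CPM in WT serum, 139.5 in WT 2i, 398 in WT gel, 237 in JupLow and 227 in JupHigh. Both were lowest in WT 2i and highest in WT gel, the former 1.96-fold (95% interval 1.77 to 2.16) and the latter 2.00-fold (95% interval 1.80 to 2.21) lower in WT 2i than in WT serum. Pkm stood at 722 CPM in WT serum, 450.5 in WT 2i, 669 in WT gel, 650.4 in JupLow and 585 in JupHigh, with WT 2i the lowest, 1.60-fold (95% interval 1.51 to 1.70) lower than WT serum. Eno1 stood at 871 CPM in WT serum, 526 in WT 2i, 703 in WT gel, 743 in JupLow and 619.6 in JupHigh, and was 1.66-fold (95% interval 1.57 to 1.75) lower in WT 2i than in WT serum. The WT serum table has no column for its copy Eno1b, which held 261 to 415 CPM in the other 4; with the copy added, Eno1 was 1.11-fold lower in WT 2i, so this call is lost with the copy added. Gapdh and Pgam1 stayed within 1.5-fold, at 422 and 585 CPM in WT 2i against 478 and 748 in WT serum. In the upper steps Pfkfb3, which makes the activator of phosphofructokinase, stood at 28.7 CPM in WT serum, 3.38 in WT 2i, 4.23 in WT gel, 15.3 in JupLow and 6.96 in JupHigh, highest in WT serum and 8.50-fold lower in WT 2i. Aldoa, Gpi1 and Hk2 were not past the fold.

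Of the 7 hypoxia-response members compared, 5 were past the fold lower in WT 2i; Mif was 1.30-fold lower, and Higd1a 1.18-fold lower with an interval that includes 1 (0.985 to 1.40). Ddit4, an inhibitor of mTORC1 signalling, stood at 93.7 CPM in WT serum, 22.6 in WT 2i, 131 in WT gel, 67.1 in JupLow and 25.1 in JupHigh. WT 2i and JupHigh were the 2 low libraries, and the ratio of WT serum to WT 2i was 4.15-fold (95% interval 3.37 to 5.11). Egln1, the main hydroxylase that marks HIF for destruction, stood at 20.3 CPM in WT serum, 7.97 in WT 2i, 38.1 in WT gel, 31.3 in JupLow and 15.8 in JupHigh, lowest in WT 2i and 2.55-fold (95% interval 1.68 to 3.82) lower there than in WT serum. Bnip3l stood at 157 CPM in WT serum, 94.6 in WT 2i, 152 in WT gel, 179.6 in JupLow and 134 in JupHigh. It was 1.66-fold (95% interval 1.45 to 1.89) lower in WT 2i, and 1.43-fold lower with its copy Bnip3l-ps added. Bnip3 was under 20 CPM in both libraries. It stood at 5.95 CPM in WT serum, 4.71 in WT 2i, 88.9 in WT gel, 45.9 in JupLow and 35.0 in JupHigh, so the 2 low libraries differ from the 3 others by a wide margin, but Bnip3 overlaps the predicted gene Gm45507 on the opposite strand. Whether the genes missing from the WT serum table bear on this was not tested. Vegfa, Ndrg1, Egln3, Ankrd37, Car9 and the aldolase Aldoc stayed under 20 CPM in every library. Vegfa, the angiogenic growth factor, had no UMI in WT gel, where 3 UMIs would be 12.7 CPM, and 12.4 CPM in WT serum.

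P4ha1 and P4ha2, subunits of the enzyme that hydroxylates collagen, were found in WT serum mostly in a small set of cells. P4ha1 stood at 66.9 CPM in WT serum, 12.2 in WT 2i, 21.2 in WT gel, 21.5 in JupLow and 17.9 in JupHigh, and P4ha2 at 52.5 CPM in WT serum, 0.845 in WT 2i, 4.23 in WT gel, 10.8 in JupLow and 9.05 in JupHigh. WT serum is the one high library for both. In that library, 11 primitive endoderm markers, none of them a member, summed to 0.5% or more of the UMIs in 46 of 725 cells (6.34%), a range on a per-cell score rather than a cell type, with 31 cells between 0.25% and 0.75%. These 46 cells held 99 of the 135 P4ha1 UMIs, at 763 CPM against 19.1 in the other cells, a ratio of 40.0 (27.1 to 60.4). They also held 80 of the 106 P4ha2 UMIs, at 617 against 13.8 CPM, a ratio of 44.8 (28.5 to 72.7). Their median depth was 2450 UMIs and that of the others 2359, and their median share of ES cell markers 0.0725% against 0.189%. JupHigh had 9 such cells, with P4ha1 at 489 CPM on 8 UMIs and P4ha2 at 428 CPM on 7, but the 7 in JupLow held 1 P4ha1 UMI (61.5 CPM) and 0 P4ha2 UMIs, the 2 in WT gel held none of either, and WT 2i had no such cell. Without such cells in any library, P4ha1 in WT gel and in JupLow was no longer below WT serum (log2 ratios 0.17 and 0.16). Members past the fold lower than WT serum became 12 of 25 compared for WT 2i, 1 of 28 for WT gel, 4 of 26 for JupHigh and 1 of 28 for JupLow. Part of that drop came from the level limit. P4ha2 then stood under 20 CPM in every library and was not compared, though still at 13.8 CPM in WT serum and 0.845 in WT 2i. P4ha1, at 19.1 CPM in WT serum and 12.2 in WT 2i, was not compared between those 2 either. The split of cells was chosen after the values were seen.

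**Figure D5:**
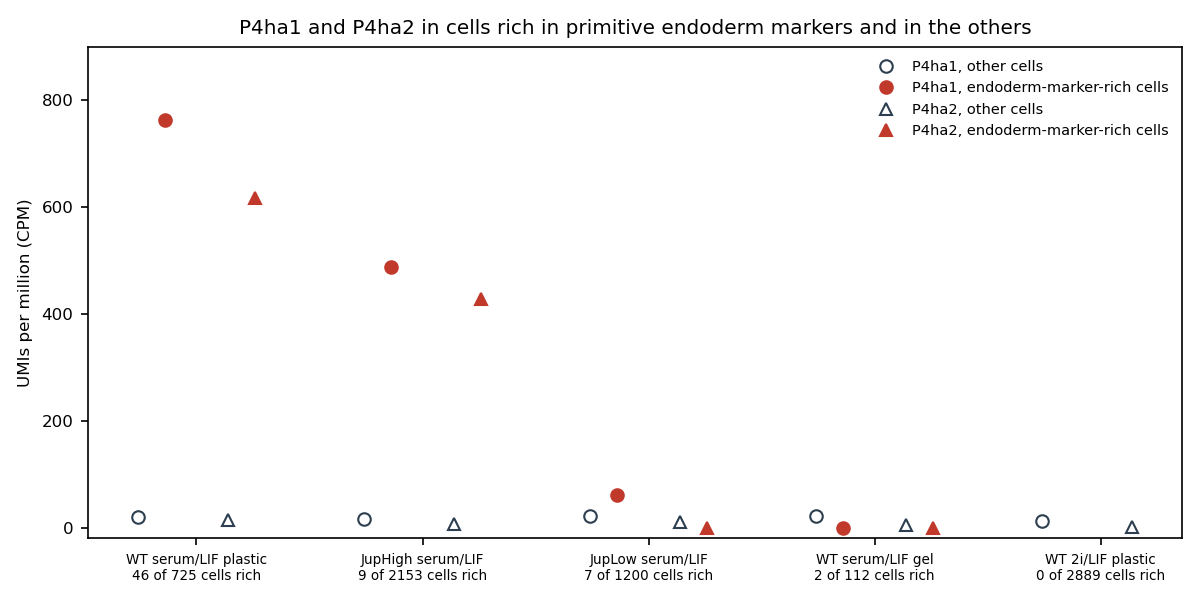
P4ha1 (circles) and P4ha2 (triangles) in CPM, in cells with primitive endoderm markers at 0.5% or more of UMIs (filled) and in the other cells (open), for each single-cell library. In WT serum the filled symbols stand at 763 and 617 CPM and the open ones at 19.1 and 13.8, and the 46, 9, 7, 2 and 0 such cells per library are printed below.

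Microgels were also compared with plastic in serum/LIF, with 112 gel cells. Of 30 members compared, 6 were past the fold higher and 4 lower, beside 16% and 23.2% of all 7444 genes, and the median log2 ratio was 0.20 against -0.05 for all genes. These values move with the choice of cells: 3 were higher, with a median of 0.052, among cells of 500 UMIs or more, 2 with 0.018 over every barcode and 9 with 0.38 among cells of 2000 or more, where all genes stood at -0.11, -0.13 and 0.10. The mean of per-cell CPM gave a median of 0.089, and with no minimum CPM the members' 0.22 lay below the 0.42 of all genes. ES cell markers held by both tables summed to 2820 CPM in WT gel and 1981 in WT serum, with 3 of 7 past the fold higher, and primitive endoderm markers to 428 and 1820, with all 8 compared past the fold lower. Lars2 stood lower in WT gel (8.47 against 30.2 CPM), opposite to bulk, but on only 2 gel UMIs. Of the genes compared, 1 of 3 immediate early genes was past the fold higher and 1 of 3 heat shock genes lower. The part of these markers and signs in the differences was not tested. Ldha was 1.62-fold (95% interval 1.40 to 1.87) higher in WT gel and Pdk1 1.53-fold (95% interval 1.00 to 2.27). Higd1a stood at 81.8 CPM in WT serum, 69.4 in WT 2i, 131 in WT gel, 70.5 in JupLow and 70.5 in JupHigh, 1.61-fold (95% interval 1.06 to 2.37) higher in gel; with its copy Gm9790 added it was 1.42-fold higher (95% interval 0.954 to 2.07) and no longer past the fold. Bnip3 rested on 21 gel and 12 plastic UMIs, at 14.95-fold (95% interval 7.03 to 33.3), and the intervals of Pfkm (8 gel UMIs) and Egln1 (9) included 1. On the lower side were P4ha1, P4ha2, Pfkfb3 (1 gel UMI) and Hk1 (2 gel UMIs, interval including 1). Within 1.5-fold, but with intervals that exclude 1, were Mif (1.43-fold, 95% interval 1.16 to 1.74), Pgk1 (1.43-fold, 95% interval 1.13 to 1.78) and Gapdh (1.30-fold, 95% interval 1.09 to 1.55), all higher, and Eno1, lower at 1.24-fold (95% interval 1.06 to 1.46) (higher by 1.28-fold with Eno1b added). Mif stood at 333 CPM in WT serum, 257 in WT 2i, 474 in WT gel, 316 in JupLow and 241 in JupHigh.

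Set beside the bulk comparison in 2i/LIF, which shares no library with it, 9 of the 13 members that rose in bulk had a ratio above 1 in serum/LIF and 3 were past the fold (Ldha, Pdk1 and, without its copy, Higd1a). None of the 13 was past it in the other direction. Of all 7444 genes compared there, 3468 had a ratio above 1. Of the 3 that fell in bulk, Slc2a1 was below 1 at a ratio of 0.856, whereas Ldhb and Pdk3 were above 1 at 1.15 and 1.5; Ldhb rested on 14 gel UMIs (interval 0.608 to 2.02) and Pdk3 on 10 (0.682 to 2.96). The difference between media was not tested.

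Between the lines labelled JupHigh and JupLow, 27 members were compared; 2 were past the fold higher in JupHigh and 4 lower, beside 7.34% and 18.1% of all 6950 genes, shares close to the members' 7.41% and 14.8%. With TMM scaling the members' counts were again 2 and 4, beside 9.97% and 14.3% of all genes. Higher in JupHigh were Pfkp, 2.86-fold (95% interval 2.27 to 3.63), and Pdk1, 1.56-fold (95% interval 1.36 to 1.80). Lower were Slc2a1, 2.37-fold (95% interval 2.13 to 2.63), Slc16a3, 4.04-fold (95% interval 2.73 to 6.09), Ddit4, 2.68-fold (95% interval 2.10 to 3.42), and Egln1, 1.98-fold (95% interval 1.43 to 2.76). The glycolytic chain itself, Aldoa to Pkm, stayed within 1.5-fold. Over the markers that both tables hold, those for ES cells summed to 3807 CPM in JupHigh and 2206 in JupLow, those for primitive endoderm to 248 and 492, and mitochondrially encoded transcripts to 14.8% and 11.4% of UMIs. Their part in the result was not tested.

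Against WT serum, JupHigh had 29 members compared, 4 past the fold higher and 7 lower, beside 11.7% and 26.2% of all 7163 genes. Markers held by both tables summed to 3455 CPM in JupHigh and 1981 in WT serum for ES cells and to 248 and 1815 for primitive endoderm, where all 8 compared were past the fold lower. The same sums were 1998 and 1981 for ES cells and 494 and 1820 for primitive endoderm in JupLow and WT serum, again with 8 of 8 compared lower. Mitochondrially encoded transcripts made up 14.8% of UMIs in JupHigh, 11.4% in JupLow and 10.5% in WT serum. The WT serum share lacks mt-Nd4 and mt-Co3, at 0 or without a column there, so it is not measured like the others. Lars2 stood at 29.5, 15.3 and 30.2 CPM in JupHigh, JupLow and WT serum. The part of these values was not tested. With TMM scaling the counts were 5 and 6, without Tpi1, beside 19.3% and 17.7% of all genes, and the median of all genes moved from -0.18 to 0.07. Pfkp (3.62-fold, 95% interval 2.70 to 4.94), Pdk1 (1.87-fold, 95% interval 1.57 to 2.23), Ldhb (1.59-fold, 95% interval 1.28 to 2.00) and Bnip3 were higher. Slc2a1 (1.88-fold, 95% interval 1.66 to 2.12), Slc16a3 (3.98-fold, 95% interval 2.61 to 6.14), Ddit4 (3.74-fold, 95% interval 2.94 to 4.78), Pfkfb3, Tpi1, P4ha1 and P4ha2 were lower. JupLow had 29 compared, 2 past the fold higher and 3 lower, beside 8.9% and 12.7% of all 7169 genes: Bnip3 and Egln1 (1.54-fold, 95% interval 1.05 to 2.28) were higher, and Pfkfb3 (1.88-fold, 95% interval 1.25 to 2.85), P4ha1 and P4ha2 lower. With TMM scaling the JupLow counts were again 2 and 3, beside 12.8% and 9.77% of all genes. Both comparisons share the WT serum library with that of WT 2i, so their directions are not independent, and both lines lay above WT serum in Bnip3 and below it in the P4ha genes, as WT gel did.

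Cells also differed in how unevenly they held the glucose transporters. After thinning each cell to 1000 UMIs, the variance of the summed Slc2a1 and Slc2a3 UMIs over their mean, which is 1 for random sampling, was 1.78 in WT serum, 1.08 in WT 2i, 1.04 in WT gel, 2.08 in JupLow and 1.15 in JupHigh. Slc2a3 alone gave 1.87 in WT serum and 1.90 in JupLow, where 26 of 1200 cells held 4 or more UMIs and the highest held 9. Slc2a1 alone gave 1.02 in WT serum and 1.44 in JupLow. The unevenness in WT serum thus lay in Slc2a3, and in JupLow in both. The transporter means ran from 0.41 UMIs per cell in WT 2i to 0.79 in JupLow. Such unevenness was not limited to the transporters. For lower glycolysis the ratio was 1.75 in WT serum, 1.21 in WT 2i, 1.59 in WT gel, 1.76 in JupLow and 1.57 in JupHigh, at higher means (2.30 to 3.45). Over all members the ratio ran from 1.35 in WT 2i to 2.15 in WT serum, at means of 4.63 and 6.39 UMIs per cell.

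Other genes of the pathway were again read from lists, with WT 2i against WT serum first, where 18.2% of all genes were higher and 23.6% lower. Of 9 HIF regulators compared, 0 were past the fold higher and 3 lower: Epas1, an alternative HIF subunit (8.98-fold), Hif1a (2.22-fold) and Ep300 (1.61-fold). Epas1 was also below WT serum in JupHigh (4.67-fold), JupLow (4.34-fold) and WT gel (2.73-fold on 3 UMIs, with an interval that includes 1). Of 14 further hypoxia-inducible genes, 3 were higher and 8 lower. The lower ones were led by Bhlhe40, a transcriptional repressor (23.3-fold), the lysyl hydroxylase Plod2 (8.27-fold) and Cited2 (6.43-fold), an inhibitor of HIF coactivation. Plod2 was also below WT serum in JupHigh (3.04-fold), JupLow (1.67-fold) and WT gel (72.0 against 130 CPM). The 3 higher ones were Ak4 (234 CPM in WT 2i against 56.5 in WT serum), Kdm3a (121 against 57.5) and Car12 (22.2 against 6.44). Of 4 other glycolytic isoenzymes 1 was higher, Tigar, a phosphatase that diverts sugar from glycolysis (3.36-fold), and 1 lower, Bpgm. Of 7 pyruvate entry genes 1 was lower, Dld (1.82-fold), and 3 were higher, among them Pdp2 (2.83-fold) and Pdha1 (2.82-fold). But Pdha1 was also 2.73-fold to 3.47-fold above WT serum in the other 3 libraries. Dld was likewise below WT serum in JupHigh (1.83-fold), JupLow (1.98-fold) and WT gel (2.25-fold on 5 UMIs, with an interval that includes 1). Of 5 pentose phosphate genes Pgd was higher (1.72-fold) and none lower.

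Between JupHigh and JupLow, where 7.34% of all genes were higher and 18.1% lower, 6 of 12 further hypoxia-inducible genes were past the fold lower in JupHigh and 2 higher. Among the lower ones were Bhlhe40 (6.57-fold) and Cited2 (5.79-fold). The 2 higher ones were Kdm3a (120 CPM in JupHigh against 64.3 in JupLow) and Mxi1 (41.3 against 20.8). Of 8 HIF regulators, Hif1a was lower (1.56-fold) and none higher; of 4 isoenzymes, Tigar was higher (1.66-fold) and Bpgm and Gpd2 lower. Pdhb, of 6 pyruvate entry genes, and Rpe, of 6 pentose phosphate genes, were the single lower ones, with none higher. In WT gel against WT serum (16% and 23.2% of all genes), the lists of HIF regulators, hypoxia-inducible genes, isoenzymes, pyruvate entry and pentose phosphate genes had 0 higher and 1 lower of 9, 2 and 4 of 13, 1 and 2 of 4, 3 and 1 of 7, and 1 and 0 of 6. Those with intervals that exclude 1 among the named were Fam162a (1.97-fold), Rpe (4.51-fold) and Pdha1, higher, and the lactate carrier partner Bsg (1.73-fold), lower.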

How the data were processed

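The 6 bulk values per gene are a depth-scaled signal deposited by the authors; every value is a whole number of reads times a constant per library (100% within 0.01 reads), so reads were recovered. The single-cell tables hold UMI counts as deposited by the authors. Per the submitters' processing notes, FastQC, STAR, featureCounts, DESeq2 and Scanpy and the builds mm10 and GRCm38 were used, with no versions or roles given. Bulk groups of 3 were compared with limma 3.58.1 (trend) on log2(value + 0.5), after edgeR's read filter, with Benjamini-Hochberg adjustment over 7878 genes; edgeR 4.0.16 and DESeq2 1.42.0 on recovered reads, other scalings, filters and pseudocounts, a GC correction, a replicate block and each library left out were alternatives. The test was also run on simulated counts that held no GC trend between the groups, and the outcome is not reported here. For 1 plastic library the title and description give different replicate numbers, and the title's was used. Bulk samples share replicate numbers only: correlations of their deviations ran from -0.064 to 0.050.

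Single cells were barcodes with 1000 UMIs or more; barcodes of 1 repeated base were dropped, the WT gel table's last, incomplete row was left out, and no doublet caller was run. UMIs were summed per library, since cells are not replicates, and ratios carry exact conditional binomial intervals; UMI intervals cover counting error only. Strand use in counting is not given in the sources used here, and 14 members overlap another gene. Gene positions and GC come from the GENCODE annotation of GRCm38, promoters from RefSeq. The members, the role groups and the pathway lists were chosen with earlier results of these data known. All members are named: those called in bulk, or past the fold in single cells, by library values, the others by ranges; of each other list, up to 3 called genes with the largest change, except 1 that is not reported here.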

Additional observations from a re-analysis of the deposited data

How the results depend on the processing

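In bulk, edgeR called 13 members higher and 3 lower and DESeq2 12 and 2, and the replicate block, in a design whose numbers do not pair the libraries, gave 13 and 3 (10 and 4 with the GC correction); it changed no other count by over 1.5 times. Requiring a 2-fold change left 1 member higher (Mif) and 0 lower, and 453 and 274 of all genes. The GC correction gave 9 higher and 5 lower. Leaving out 1 library gave 9 to 14 higher, Hk1 included where a fit kept it, and 2 to 3 lower. Of the 16 calls, 8 held in all 6 such fits (Aldoa, Tpi1, Gapdh, Pgk1, Ldha, Ldhb, Pdk3 and Mif). Of these 8, Mif did not pass with the GC correction without the replicate block (log2 fold change 0.28, limma-adjusted p = 0.0551).

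Members that did not pass changed sign, at these log2 fold changes: Slc2a3 -0.072 to 0.21 (leave-one-out), Pfkp -0.12 to 0.022 (leave-one-out), Pkm -0.27 (GC correction, with and without the replicate block) and -0.034 to 0.16 (leave-one-out), Bnip3 0.15 (GC correction, both ways) and -0.26 to 0.092 (leave-one-out), Bnip3l 0.0096 (DESeq2), 0.013 (library totals), 0.0084 (TMM), 0.0010 (pseudocount 5), 0.20 (GC correction, both ways) and -0.17 to 0.22 (leave-one-out), and P4ha1 0.0090 (library totals), 0.0047 (TMM), 0.016 (thinned), 0.076 (GC correction, both ways) and -0.23 to 0.19 (leave-one-out).

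In single cells, TMM scaling moved the median log2 ratio of all genes from -0.13 to -0.0077 in JupHigh over JupLow and from -0.0019 to 0.12 in JupLow over WT serum, with the members' counts there unchanged. A 2-fold limit left 9 members lower in WT 2i, 1 higher in WT gel, 1 higher in JupHigh over JupLow, 2 higher in JupHigh over WT serum and 1 higher in JupLow over WT serum. At 100 CPM the counts higher and lower were 1 and 7 (WT 2i), 3 and 0 (WT gel), 1 and 1 (JupHigh over JupLow), 1 and 2 (JupHigh over WT serum) and 0 and 0 (JupLow over WT serum). With no minimum CPM, 10 were higher in WT gel and 8 lower in JupHigh over JupLow. Without members that overlap another gene, the higher counts were 1, 3, 1, 2 and 1. Cells of 500 UMIs gave 3 higher in WT gel and 1 in JupLow over WT serum, every barcode 2 and 1, and Pfkm in WT gel then turned to a log2 ratio of -0.17. Without cells rich in primitive endoderm markers, lower counts were 1 (WT gel), 4 (JupHigh over WT serum) and 1 (JupLow over WT serum). P4ha2 was then under the minimum CPM in every library and not compared, and P4ha1 turned to 0.17 in WT gel and 0.16 in JupLow. That setting and the addition of gene copies were chosen after seeing the data. Except where named, the cause was not tested. Thinned to 500 and 2000 UMIs, Ldha was found in 21.9% and 57.2% of WT serum and 7.996% and 27.1% of WT 2i cells, and the transporter variance over mean was 2.55 in WT serum (2000), 1.27 and 1.199 in WT gel, 1.55 and 3.70 in JupLow and 1.02 and 1.32 in JupHigh. Each count, share or spread at another setting made 1 check: 211 stayed within their limits (1.5 times for counts) and 45 did not. In checks of single members, 818 kept their outcome, 48 lost a call, 1 gained one, 31 changed sign and 26 moved past their limits.

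Depth limits the WT gel library most, where 1 UMI is worth more than 4 CPM, and the bulk call of Pdk1. Every single-cell contrast sets 1 library against 1, so day and library cannot be told apart from condition. In the contrasts with JupHigh or JupLow, line cannot be told apart from it either. Of the 5 contrasts, 4 rest on the WT serum table.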
